A study of Mus musculus with 17 samples.

Results

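The transcripts described here mark the macrophages that enter the liver from blood monocytes and the lipid-associated macrophages into which such cells can mature. They are Trem2, Gpnmb, Spp1, Cd9, Cd63, Lgals3, Ccr2, Cx3cr1, Itgax and Mmp12. The 10 genes were chosen by symbol, and all 10 were found in both gene tables, among 19151 genes measured under a high-fat diet (HFD) and 24233 measured under a high-fat, high-cholesterol Western diet (WD). Male C57BL6 mice had been fed one of these diets for 16 weeks after chow. N-LKO mice carried floxed NgBR (Nus1) alleles and Cre recombinase driven by the albumin promoter, a promoter active in hepatocytes and not in macrophages, and WT mice served as controls. Whether the WT animals carried floxed alleles or Cre is not given in the sources used here. Liver RNA was sequenced from 4 WT and 4 N-LKO mice under HFD, and, under WD, from 3 livers of each genotype and 3 tumors of N-LKO mice. Whether a tumor and an N-LKO liver came from the same animal is not given either.

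A healthy liver holds resident macrophages, the Kupffer cells, which are recognised by Clec4f, Vsig4, Timd4 and Cd163. In fatty liver disease some Kupffer cells are lost and monocytes move in, guided by the chemokine receptors Ccr2 and Cx3cr1. Part of the incoming cells gather around fat-laden hepatocytes and scars as lipid-associated macrophages, which carry the lipid receptor Trem2, the glycoprotein Gpnmb, the tetraspanins Cd9 and Cd63 and the secreted proteins osteopontin (Spp1), galectin-3 (Lgals3) and macrophage elastase (Mmp12). Several of these genes are not restricted to macrophages. Spp1 and Cd9 are also transcribed in bile duct cells, Cd63 in most cell types, and Itgax, which encodes CD11c, in dendritic cells. The study's single-cell data also name Spp1 among the genes high in a hepatocyte cluster of N-LKO mice, which it describes as enriched for HCC. In whole tissue, fewer or more cells of a type cannot be told apart from less or more RNA per cell.

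On GRCm38, Trem2 lies on chromosome 17 (48346401 to 48354147), Gpnmb on chromosome 6 (49036546 to 49070929), Spp1 on chromosome 5 (104435118 to 104441050) and Cd9 on chromosome 6 (125460266 to 125494791). Cd63 lies on chromosome 10 (128900989 to 128912822), Lgals3 on chromosome 14 (47367751 to 47386160), Ccr2 on chromosome 9 (124101950 to 124113557) and Cx3cr1 on the same chromosome (119901616 to 120069879). Itgax lies on chromosome 7 (128129547 to 128150657) and Mmp12 on chromosome 9 (7344381 to 7369499). All 10 are protein-coding, with Cd9 and Cx3cr1 on the minus strand. Values are gene totals over exons. The count of Cd63 was fractional in all 8 HFD and all 9 WD libraries, so reads shared with other features entered it, and its level is less certain than the others. Cx3cr1 overlaps 9 other annotated genes and Cd9 overlaps 2, while Spp1 and Mmp12 overlap 1 each, which for Mmp12 is Mmp1b on the opposite strand.

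The bases around the transcription start were read from RefSeq for the members, with 12 windows (250 bases before and 50 after a start) matching the 10 genes. Both strands were searched for the core of the myeloid factor PU.1 (GAGGAA), the AP-1 motif (TGANTCA), the E-box (CACGTG) and the TATA box (TATAAA). The PU.1 core was found for 4 genes (Trem2, Spp1, Cd63 and Mmp12) and in 28.3% of all 32851 windows. The AP-1 motif was found for 4 genes (Trem2, Gpnmb, Itgax and Mmp12) and in 7.81% of all windows. The letters TATAAA were found for 2 genes, Spp1 and Mmp12, against 13.6% of windows, and the E-box for 0 genes, against 7.15%. Counted by window, as the shares of all windows are, these motifs lay in 4, 4, 2 and 0 of the 12 member windows. The TATAAA matches began at position -211 from the start in Spp1 and at position 4 in window 2 of Mmp12. Windows of 3 genes are printed below up to the annotated gene, from RefSeq GRCm38.p6, plus strand, with matches in capitals. They show Spp1, a member called under HFD and in tumors against WT livers, Trem2, the receptor that names the cells, and Itgax, which was called in tumors against WT livers. Of the other members called in a comparison, which are not printed, Cd63 held PU.1 cores, and Cd9 and Cx3cr1 held no match. In Spp1 (chr5:104434861-104435110) the capitals mark the letters TATAAA and then a PU.1 core. In Trem2 (chr17:48346151-48346400) they mark a PU.1 core on the minus strand, followed by an AP-1 motif. In Itgax (chr7:128129300-128129546) they mark an AP-1 motif.
Spp1: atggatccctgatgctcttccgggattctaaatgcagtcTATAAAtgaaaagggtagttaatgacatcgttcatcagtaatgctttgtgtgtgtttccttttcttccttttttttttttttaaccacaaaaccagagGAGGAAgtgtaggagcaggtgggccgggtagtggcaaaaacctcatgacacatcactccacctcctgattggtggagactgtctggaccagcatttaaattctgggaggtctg
Trem2: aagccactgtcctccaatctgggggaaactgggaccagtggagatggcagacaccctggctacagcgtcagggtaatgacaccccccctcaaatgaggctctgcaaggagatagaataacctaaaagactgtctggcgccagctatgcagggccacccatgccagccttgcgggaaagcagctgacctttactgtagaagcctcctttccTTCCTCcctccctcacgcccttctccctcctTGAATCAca
Itgax: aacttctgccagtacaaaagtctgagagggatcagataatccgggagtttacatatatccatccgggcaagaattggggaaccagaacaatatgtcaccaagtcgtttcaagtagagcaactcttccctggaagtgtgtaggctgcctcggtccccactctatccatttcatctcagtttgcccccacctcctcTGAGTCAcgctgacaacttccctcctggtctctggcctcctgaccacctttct
These matches describe letters only, and binding was not measured.

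Levels are CPM, each library's counts scaled to a common total, computed from the deposited estimated counts and library totals scaled by the trimmed mean of M-values (TMM). The totals ran from 9096110 to 12215784 under HFD and from 15494731 to 20200618 under WD. The targeted gene was lower in every N-LKO liver than in every WT liver of the same diet: Nus1 stood at 82.3 to 96.0 CPM (WT HFD) and 29.3 to 37.9 CPM (N-LKO HFD), and at 88.1 to 98.8 CPM in WT livers, 41.6 to 51.1 CPM in N-LKO livers and 28.95 to 43.9 CPM in tumors under WD. Hepatocyte identity was present in each group, with Alb at mean levels of 26500 to 50900 CPM. WT WD replicate 2 stood apart: it had the lowest TMM factor (0.806) and the lowest level among the 9 WD libraries for all 10 members. Fold changes of the members, sums, ratios and list calls that rest on WT WD livers are therefore also given without it.

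The first question was whether these transcripts differ between N-LKO and WT livers under HFD. Spp1 and Cd63 rose, 2.93-fold and 2.39-fold, and the other 7 tested members had log2 fold changes above 0, like 49.1% of all genes, that did not pass the test. The count of 2 among 9 tested members stands beside 4.87% of all 13460 genes called in either direction and 2.56% called higher. At an unadjusted edgeR p under 0.05 there were 6 members, all higher in N-LKO livers, beside 11.2% of all genes. The median log2 fold change was 1.17 over the 9 members and -0.01 over all genes. Groups did not overlap for 3 members (Spp1, Cd63 and Cx3cr1), beside 7.38% of all genes that were higher without overlap. Over all genes, log2 fold changes under HFD were lower for longer transcripts (Spearman correlation -0.37). The longest coding transcripts of Spp1, Cd63 and Cx3cr1 have 1507, 1109 and 4493 bases. With an offset for length and GC content Spp1 remained called and Cd63 did not (log2 fold change 1.12, edgeR adjusted p 0.0819).

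**Figure D1:**
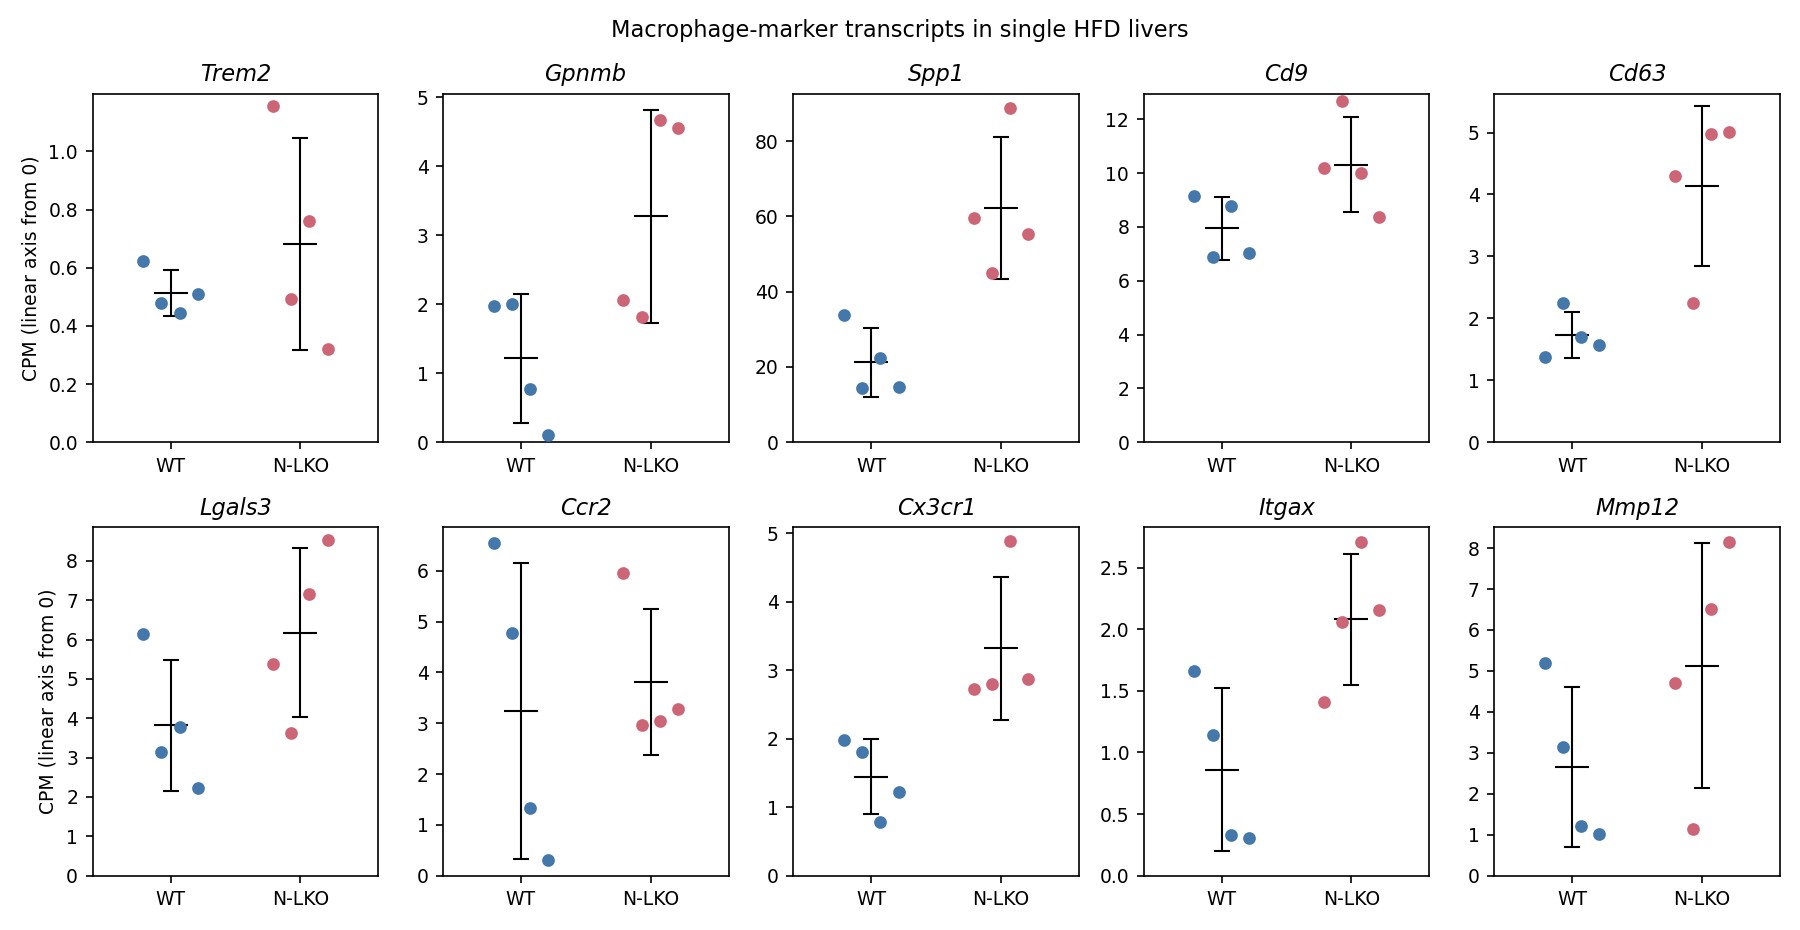
Level of each member in CPM (linear vertical axis from 0) in single HFD livers, WT in blue and N-LKO in red, with the mean and SD (n = 4 each) in black. The N-LKO points of Spp1, Cd63 and Cx3cr1 lie wholly above the WT points, while those of Trem2 and Ccr2 overlap the WT points.

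Among the secreted proteins, osteopontin (Spp1) binds integrins and CD44 and is made by scar-associated macrophages. Its level was 33.7, 14.3, 22.3 and 14.5 CPM in the 4 WT livers and 59.7, 45.1, 88.8 and 55.4 CPM in the 4 N-LKO livers under HFD. Every N-LKO liver was above every WT liver, with log2 fold change 1.55 (SE 0.27, edgeR adjusted p 0.0139). The call held in all 9 alternative fits and with each library left out, where the highest edgeR adjusted p was 0.0457. Galectin-3 (Lgals3), a sugar-binding lectin of phagocytes, stood at 6.13, 3.15, 3.77 and 2.24 CPM in WT and at 5.37, 3.62, 7.17 and 8.54 CPM in N-LKO livers. Mmp12, an elastin-degrading protease, stood at 5.20, 3.15, 1.22 and 1.02 CPM in WT and at 4.71, 1.15, 6.52 and 8.14 CPM in N-LKO livers. Both overlapped between the groups, and neither passed, with log2 fold change 0.69 (SE 0.32, edgeR adjusted p 0.226) for Lgals3 and 0.94 (SE 0.56, edgeR adjusted p 0.344) for Mmp12. N-LKO replicates 3 and 4 were the highest of the 8 livers for both genes.

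Cd9 and Cd63 are tetraspanins, membrane proteins that organise the cell surface and the endosomes and lysosomes. Under HFD Cd63 stood at 1.38, 2.24, 1.70 and 1.57 CPM in WT livers and at 4.30, 2.25, 4.97 and 5.01 CPM in N-LKO livers. The groups did not overlap, but N-LKO replicate 2 stood level with the highest WT liver. The log2 fold change was 1.26 (SE 0.30, edgeR adjusted p 0.0359), and the call was lost in 7 of the 8 fits that left out a library (log2 fold change 1.14 to 1.44, edgeR adjusted p 0.0613 to 0.0924). Cd9 lay between 6.87 and 9.15 CPM in WT and between 8.38 and 12.7 CPM in N-LKO livers, a log2 difference of 0.38 (SE 0.16, edgeR adjusted p 0.185). Its groups overlapped, and it had the smallest SE of the tested members.

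The chemokine receptors parted under HFD. Cx3cr1, the receptor for fractalkine, stood at 1.98, 1.81, 0.777 and 1.22 CPM in WT and at 2.73, 2.80, 4.89 and 2.87 CPM in N-LKO livers. All 4 N-LKO livers were above all WT livers, yet the log2 fold change of 1.17 (SE 0.32) had an edgeR adjusted p of 0.0583. With DESeq2 it passed (adjusted p 0.0192). Ccr2, the receptor for Ccl2 that brings monocytes out of the marrow, stood at 6.55, 4.77, 1.33 and 0.305 CPM in WT and at 5.95, 2.96, 3.04 and 3.27 CPM in N-LKO livers. The WT livers alone spanned the range of the N-LKO livers, and the log2 fold change was 0.23 (SE 0.57, edgeR adjusted p 0.848). Itgax, the integrin chain CD11c, stood at 1.66, 1.14, 0.333 and 0.305 CPM in WT and at 1.41, 2.06, 2.71 and 2.16 CPM in N-LKO livers. Only N-LKO replicate 1 fell into its WT range, and the log2 fold change was 1.24 (SE 0.45, edgeR adjusted p 0.127).

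Trem2, the lipid-sensing receptor that signals through the adaptor Tyrobp, was near the detection limit under HFD. Its counts were 6, 5, 4 and 5 in WT and 14, 6, 7 and 4 in N-LKO livers, so it failed the filter on low counts and was not tested. Without the filter its log2 fold change was 0.41 (edgeR adjusted p 0.716), and a difference was not detectable at this depth. Gpnmb, a transmembrane glycoprotein of lysosome-rich phagocytes, stood at 1.98, 2.00, 0.777 and 0.102 CPM in WT and at 2.07, 1.81, 4.67 and 4.55 CPM in N-LKO livers. Its 2 high N-LKO livers were again replicates 3 and 4. The log2 fold change was 1.40 (SE 0.54, edgeR adjusted p 0.151).

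Under WD the same genotypes were compared, in 3 WT and 3 N-LKO livers. All 10 members had a log2 fold change above 0, from 0.62 to 1.48, beside 51.4% of all genes above 0, and none passed the adjusted test. The edgeR test called 0.0% of all 17829 genes in this comparison, including 0 members, and the DESeq2 test called 99 genes, again with 0 members among them. At an unadjusted edgeR p under 0.05 there were 6 members higher in N-LKO livers (Spp1, Cd9, Cd63, Lgals3, Cx3cr1 and Itgax), beside 7.10% of all genes. Without WT WD replicate 2 Spp1, Cd63, Lgals3 and Itgax stayed under that threshold. Cd9 (unadjusted edgeR p 0.0686) and Cx3cr1 (0.0754) did not. The groups did not overlap for 8 members, beside 14.4% of all genes higher without overlap. The median log2 fold change was 0.93 over the members and 0.01 over all genes. Without WT WD replicate 2 the members' log2 fold changes were 0.17 to 1.01, all above 0, and since that library was the lowest for each member, the 8 genes without overlap stayed the same.

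**Figure D2:**
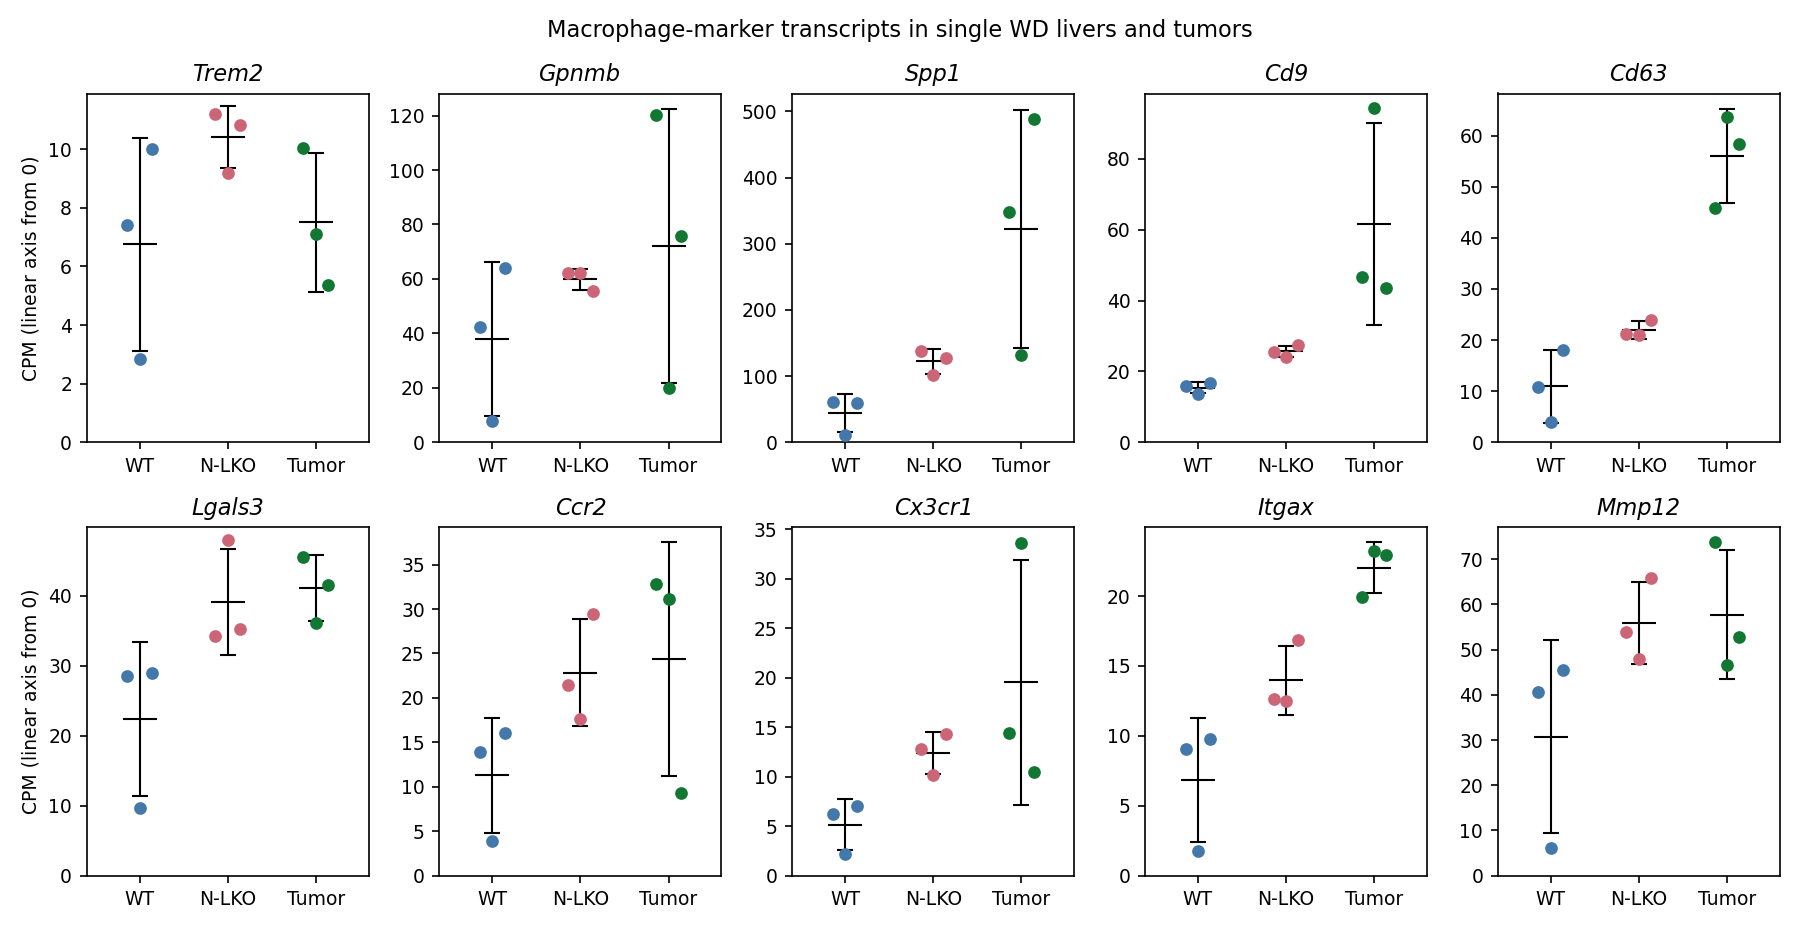
Level of each member in CPM (linear vertical axis from 0) in single WD livers and tumors, WT in blue, N-LKO liver in red and tumor in green, with the mean and SD (n = 3 each) in black. The lowest WT point is the same library in all 10 panels, and the tumor points of Cd9, Cd63 and Itgax lie above every liver.

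Among the secreted proteins under WD, Spp1 stood at 61.4, 10.3 and 59.9 CPM in WT livers and at 137, 101 and 127.7 CPM in N-LKO livers. Every N-LKO liver was above every WT liver, with log2 fold change 1.48 (SE 0.60, edgeR adjusted p 0.385). It was 1.01 without WT WD replicate 2. Lgals3 stood at 28.6, 9.69 and 28.9 CPM in WT and at 34.3, 47.9 and 35.2 CPM in N-LKO livers, and Mmp12 at 40.7, 6.23 and 45.4 CPM in WT and at 54.0, 48.0 and 65.9 CPM in N-LKO livers. For both genes the 2 upper WT livers came close to the lowest N-LKO liver. Their log2 fold changes were 0.80 (SE 0.34, edgeR adjusted p 0.386) and 0.86 (SE 0.52, edgeR adjusted p 0.504), and 0.44 and 0.37 without WT WD replicate 2.

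Cd9 was the least affected by that library. It stood at 16.0, 13.7 and 16.6 CPM in WT and at 25.6, 24.1 and 27.3 CPM in N-LKO livers, with log2 fold change 0.73 (SE 0.27, unadjusted p 0.0203, edgeR adjusted p 0.365) and 0.65 without WT WD replicate 2. The gap between the genotypes exceeded the spread within each. Cd63 stood at 10.8, 3.89 and 18.1 CPM in WT and at 21.1, 20.9 and 23.9 CPM in N-LKO livers, with log2 fold change 1.00 (SE 0.40, edgeR adjusted p 0.382) and 0.60 without WT WD replicate 2. Its 3 N-LKO livers were nearly level while the WT livers were widely spread.

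All 3 surface receptors of recruited cells were higher in each N-LKO than in each WT liver under WD. Cx3cr1 stood at 6.24, 2.24 and 7.03 CPM in WT and at 12.8, 10.1 and 14.3 CPM in N-LKO livers (log2 fold change 1.26, SE 0.47, edgeR adjusted p 0.374). Ccr2 stood at 13.9, 3.93 and 16.1 CPM in WT and at 21.5, 17.6 and 29.4 CPM in N-LKO livers (log2 fold change 1.01, SE 0.53, edgeR adjusted p 0.454). Itgax stood at 9.05, 1.76 and 9.77 CPM in WT and at 12.6, 12.5 and 16.8 CPM in N-LKO livers (log2 fold change 1.02, SE 0.44, edgeR adjusted p 0.394). None of the 3 passed over all genes, and without WT WD replicate 2 their log2 fold changes were 0.90, 0.60 and 0.57.

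Trem2 and Gpnmb were the 2 members whose genotypes overlapped under WD. Trem2 stood at 7.40, 2.84 and 10.01 CPM in WT and at 11.2, 9.20 and 10.8 CPM in N-LKO livers (log2 fold change 0.62, SE 0.38, edgeR adjusted p 0.505). Gpnmb stood at 42.4, 7.79 and 63.9 CPM in WT and at 62.0, 62.1 and 55.5 CPM in N-LKO livers (log2 fold change 0.65, SE 0.68, edgeR adjusted p 0.689). WT WD replicate 3 lay within the N-LKO range for Trem2 and just above it for Gpnmb. The log2 fold changes were 0.25 and 0.17 without WT WD replicate 2.

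Tumors were then compared with both liver groups. Against WT livers 5 members rose, Spp1 7.35-fold, Cd63 5.10-fold, Cd9 3.99-fold, Cx3cr1 3.77-fold and Itgax 3.20-fold. The count of 5 among 10 stands beside 14.9% of all 17829 genes called and 8.08% called higher. The other 5 members had log2 fold changes of 0.15 (Trem2) to 1.11 (Ccr2) that did not pass, so all 10 were above 0, beside 53.2% of all genes. The median log2 fold change was 1.39 over the members and 0.04 over all genes, and 7 members were higher in all tumors than in all WT livers, beside 17.7% of all genes. Against N-LKO livers 0 members passed in edgeR, beside 0.499% of all genes called, and 3 (Spp1, Cd9 and Cd63) had an unadjusted p under 0.05, beside 10.1% of all genes higher at that threshold. DESeq2 called 2 of them, Cd9 and Cd63. These comparisons share libraries with each other and with the comparison of the livers, so they are not independent.

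Without WT WD replicate 2 the calls over all genes in tumors against WT livers fell from 2653 to 570, and those of the members from 5 to 4. Spp1 (log2 fold change 2.41, edgeR adjusted p 0.0373), Cd9 (1.91, 0.0329), Cd63 (1.95, 0.0148) and Itgax (1.22, 0.0262) kept their calls and Cx3cr1 (1.56, 0.0871) did not. The others stood at 0.70 for Ccr2, 0.51 for Lgals3, 0.43 for Gpnmb, 0.42 for Mmp12 and -0.22 for Trem2, whose sign turned. That library was the lowest for each member, so the 7 members above all WT livers were the same without it.

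**Figure D3:**
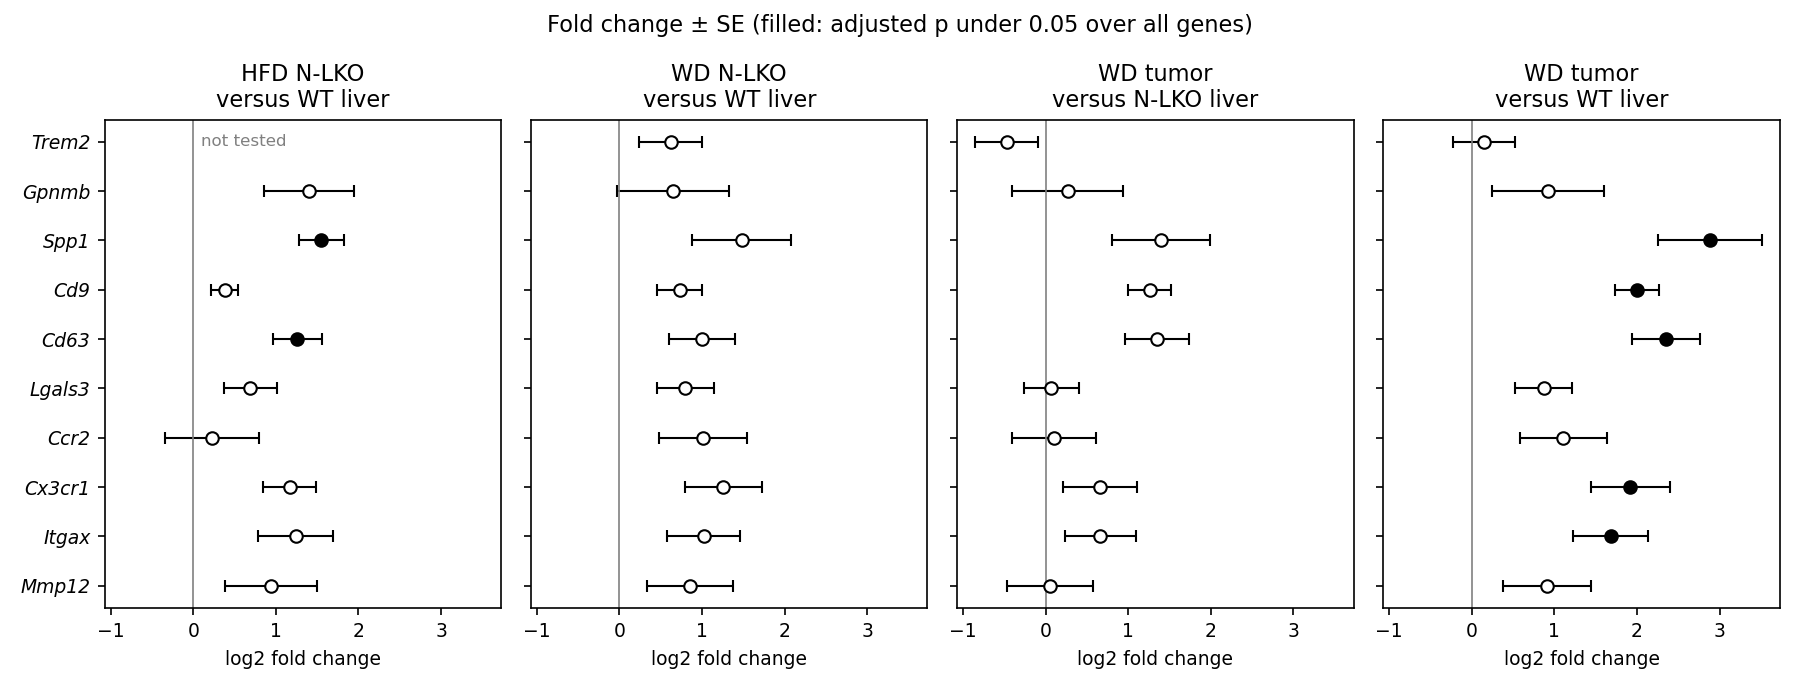
Log2 fold change (horizontal axis) with its SE for each member in the 4 comparisons, filled where the edgeR adjusted p was under 0.05. Under HFD only Spp1 and Cd63 are filled, and in tumor versus WT liver 5 members are, led by Spp1 at 2.88, while no member is filled in the other 2 panels.

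Spp1 stood in tumors at 347, 132 and 489 CPM. Tumor replicate 2 stood within the range of the N-LKO livers and the other 2 stood above it. The log2 fold change was 2.88 against WT livers (SE 0.63, edgeR adjusted p 0.0187) and 1.40 against N-LKO livers (SE 0.59, unadjusted p 0.0391, edgeR adjusted p 0.246). The first call was lost when only these 2 groups were fitted (edgeR adjusted p 0.0580).

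The tetraspanins separated tumors from both liver groups. Cd9 stood at 46.6, 94.4 and 43.5 CPM in tumors and Cd63 at 45.8, 63.7 and 58.4 CPM. For both genes, and for Itgax, every tumor was above all 6 WD livers, beside 8.09% of all genes with that order. Against WT livers the log2 fold change was 2.00 for Cd9 (SE 0.27, edgeR adjusted p 0.00615) and 2.35 for Cd63 (SE 0.41, edgeR adjusted p 0.0107), and both calls held in every alternative and with each library left out. Against N-LKO livers it was 1.26 for Cd9 (SE 0.26, unadjusted p 0.000705, edgeR adjusted p 0.0722) and 1.35 for Cd63 (SE 0.39, edgeR adjusted p 0.125). The Cd9 value passed without tumor replicate 1 (edgeR adjusted p 0.0110) and without tumor replicate 2, where it was 0.80 (edgeR adjusted p 0.0479), and the Cd63 value passed without WT WD replicate 2 (edgeR adjusted p 0.0453).

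Itgax was the most even member among tumors, at 19.9, 23.2 and 22.9 CPM. Its log2 fold change against WT livers was 1.68 (SE 0.45, edgeR adjusted p 0.0340), and the call was lost in 6 of the 9 fits that left out a library (edgeR adjusted p 0.0526 to 0.0724). Cx3cr1 stood at 14.5, 33.7 and 10.5 CPM, with tumor replicate 2 above the other two. Its log2 fold change against WT livers was 1.92 (SE 0.48, edgeR adjusted p 0.0273). The call was lost without WT WD replicate 1 (edgeR adjusted p 0.0630), without WT WD replicate 2 (0.0871) and without tumor replicate 2, where the value was 1.23 (0.0738). Ccr2 stood at 32.9, 31.1 and 9.27 CPM. Tumor replicate 3 lay below 2 of the 3 WT livers, and the log2 fold changes were 1.11 against WT livers (SE 0.53, edgeR adjusted p 0.176) and 0.10 against N-LKO livers (SE 0.51, edgeR adjusted p 0.944).

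For the remaining members tumors and N-LKO livers overlapped. Trem2 stood at 10.04, 7.11 and 5.36 CPM in tumors, and it was the only member with a negative log2 fold change against N-LKO livers (-0.47, SE 0.38, edgeR adjusted p 0.540), where 9 of 10 were above 0, beside 51.7% of all genes. Gpnmb stood at 120, 19.8 and 75.8 CPM, so that its tumors reached both below and above the N-LKO livers (log2 fold change 0.27, SE 0.67, edgeR adjusted p 0.875). Lgals3 stood at 45.6, 36.1 and 41.6 CPM and Mmp12 at 73.8, 46.6 and 52.8 CPM, with log2 fold changes against N-LKO livers of 0.07 (SE 0.33) and 0.05 (SE 0.52). Both were higher in every tumor than in every WT liver, with log2 fold changes of 0.87 (SE 0.34, edgeR adjusted p 0.104) and 0.91 (SE 0.53, edgeR adjusted p 0.260).

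An interaction term, fitted over the 14 livers, asked whether the genotype effect depended on the diet. For 0 of the 10 members did it pass in edgeR, beside 1.62% of all 15850 genes called, and 0 had an unadjusted p under 0.05. DESeq2 also called 0 members. The differences (WD effect minus HFD effect, log2) ran from -0.72 for Gpnmb (SE 0.93) to 0.79 for Ccr2 (SE 0.79), and 5 of the 10 were above 0. For Spp1 the difference was -0.06 (SE 0.61) and for Cx3cr1 0.11 (SE 0.52). SEs of this size do not show that the effects were alike. They ran from -1.22 to 0.37 without WT WD replicate 2, and 2 of the 10 were then above 0. Levels of one diet were not tested against the other, because diet and gene table cannot be told apart.

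Compared per length (CPM per kilobase of the longest coding transcript), Spp1 had the highest level of the members in all 5 groups. It stood at 14.1 ± 6.05 CPM per kilobase (SD, n = 4) in WT and 41.3 ± 12.4 (n = 4) in N-LKO livers under HFD, and at 29.1 ± 19.3 (n = 3), 81.0 ± 12.4 (n = 3) and 214 ± 119 (n = 3) in WT livers, N-LKO livers and tumors under WD. Its gap to the next member was beyond their spread in each group except WT WD livers. Cd9, Lgals3 and Cd63 followed in each group, apart from WT WD livers, where Gpnmb (10.3 ± 7.64 CPM per kilobase) lay between Cd9 (12.6 ± 1.26) and Cd63 (9.86 ± 6.42). Ccr2, Cx3cr1 and Itgax took the last 3 places in every WD group, and the gaps among them were within their spread. Under HFD Itgax came last, at 0.213 ± 0.164 CPM per kilobase in WT and 0.514 ± 0.132 in N-LKO livers.

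The members varied together to unequal degrees over libraries. Over the 9 WD libraries, which include the group differences, Pearson's r of log2 CPM was 0.95 between Mmp12 and Lgals3 and 0.95 between Itgax and Cd63. These libraries also include WT WD replicate 2, the lowest for all 10 members, and the correlations were not computed without it. Trem2 followed Mmp12 (r = 0.867) and Ccr2 (r = 0.863) and hardly followed Cd9 (r = 0.184). Among all 15368 genes compared, those most like Trem2 included Calhm5 (0.979), Gm16153 (0.974), Gm15991 (0.972) and Cd84 (0.969), the last a leukocyte surface receptor. Those most like Gpnmb were Dcp1b (0.980), Tex9 (0.978), Gm48880 (0.968), Gm43707 (0.965) and Gpr160 (0.958). Over the 8 HFD libraries they were Atf3 (0.968), a stress-response factor, the lysosomal arylsulfatase Arsb (0.968), Ltbp3 (0.967), the pericyte and stellate cell receptor Pdgfrb (0.965) and the MHC class II gene H2-Eb1 (0.964). Trem2 was too sparse under HFD, at a mean of 0.598 CPM, for such a list to be read.

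Few genes that act with the members were called. For Trem2, 0 of 7 tested genes of its adaptor and signalling pathway passed in any of the 4 comparisons (1, 1, 0 and 0 at an unadjusted edgeR p under 0.05, in the order HFD livers, WD livers, tumor against N-LKO and tumor against WT liver). The 1 in each liver comparison was lower in N-LKO livers. Tyrobp itself stood at 13.1 ± 3.81 CPM (SD, n = 3) in WT livers, 14 ± 1.80 (n = 3) in N-LKO livers and 18.4 ± 3.62 (n = 3) in tumors under WD. For osteopontin, 0 of 8 receptor genes passed in any comparison, with 3, 0, 3 and 4 at the unadjusted threshold, of which the 3 under HFD were lower. Cd44 lay at 49.0 ± 10.1, 53.1 ± 2.20 and 50.1 ± 18 CPM in those groups. Of the ligands and growth factors for recruited macrophages, 0 of 2 tested under HFD and 0 of 7 tested between the WD livers passed. Between the WD livers the list median was 1.17, against 0.01 over all genes, and 0.76 without WT WD replicate 2. At the unadjusted threshold 3 of the 7 were higher there, with log2 fold changes of 1.5 for Cx3cl1, the ligand of Cx3cr1, and of 1.17 and 1.30 for Ccl2 and Ccl7, ligands of Ccr2 (edgeR adjusted p 0.353, 0.389 and 0.386). Without WT WD replicate 2 Cx3cl1 (log2 fold change 1.28, unadjusted edgeR p 0.0365) stayed under that threshold. Ccl2 (0.76, unadjusted edgeR p 0.106) and Ccl7 (0.98, unadjusted edgeR p 0.119) did not. Cx3cl1 was called in tumors against WT livers, also without that library (log2 fold change 2.72, edgeR adjusted p 0.00958 with it), from 1.72 ± 0.510 CPM to 11.4 ± 7.44 CPM (n = 3 each), while Ccl2 had a log2 fold change of 0.95 (edgeR adjusted p 0.218). The counts at the unadjusted threshold were 1, 3, 1 and 4 in the order above, and the 1 under HFD was lower.

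Genes related to the secreted members and the tetraspanins held a few calls. Lgals1, another galectin, rose under HFD (log2 fold change 0.88, edgeR adjusted p 0.0491), from 38.8 ± 12.6 to 71.3 ± 19.6 CPM (SD, n = 4 each), as 1 of 7 galectins and partners. In tumors against WT livers Mfge8, a bridging protein for the uptake of dying cells, rose (log2 fold change 3.82, edgeR adjusted p 0.00907) and Lgals8 fell by 0.65 on the log2 scale (edgeR adjusted p 0.0275). Mfge8 also rose against N-LKO livers (log2 fold change 3.46, edgeR adjusted p 0.0462). Of 9 tested metalloproteinases and inhibitors, Mmp13 (3.09), Mmp2 (0.99) and Timp3 (0.84) rose in tumors against WT livers in log2 terms (edgeR adjusted p 0.0140, 0.0464 and 0.0291). Tspan8, an epithelial tetraspanin, rose under HFD (log2 fold change 2.83, edgeR adjusted p 0.0251) and in tumors against WT livers (3.76, edgeR adjusted p 0.0266). In tumors against WT livers the calls of Mfge8 and Mmp13 held without WT WD replicate 2, and those of Lgals8, Mmp2, Timp3 and Tspan8 were lost. Over all companion lists, 10 of 29 such calls held.

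Among genes that lipid-associated macrophages share with other cells, those of lipid handling had calls in both directions, and the calls of lysosomal genes were both higher. Of 12 lipid genes, 0 rose and Abca1, a cholesterol exporter, fell by 0.42 on the log2 scale under HFD (edgeR adjusted p 0.0220). In tumors against WT livers Fabp5 (2.17), Fabp4 (3.85) and Lpl (1.25), which bind or release fatty acids, rose on the log2 scale (edgeR adjusted p 0.00124, 0.0152 and 0.0332), while Apoe fell by 0.84 (edgeR adjusted p 0.0248). Against N-LKO livers Fabp5 alone of the 12 rose, from 7.09 ± 0.494 to 19.9 ± 2.29 CPM (SD, n = 3 each; log2 fold change 1.49, edgeR adjusted p 0.0151). Of the lysosomal genes, Hexa rose under HFD (log2 fold change 0.52, edgeR adjusted p 0.0144, 1 of 15) and Ctss in tumors against WT livers (0.81, edgeR adjusted p 0.0492, 1 of 16). Fabp5 and Lpl kept their calls against WT livers without WT WD replicate 2, and Fabp4, Apoe and Ctss lost them. The list medians in tumors against WT livers were -0.02 for the lipid genes and -0.10 for the lysosomal genes, against 0.04 for all genes.

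Resident Kupffer cell markers moved the other way. Under HFD 6 of 9 fell in N-LKO livers (Clec4f, Vsig4, Timd4, Marco, Folr2 and Cd163), with a list median of -1.0 against -0.01 for all genes, and 0 rose. Cd163, a haemoglobin scavenger receptor, fell by 3.05 on the log2 scale (edgeR adjusted p 0.00149), from 10.5 ± 0.827 to 1.22 ± 0.724 CPM (SD, n = 4 each). Under WD 0 passed between the livers (2 at an unadjusted edgeR p under 0.05), with a median of -0.54. In tumors against WT livers 5 of 9 fell (Timd4, Cd5l, Marco, Folr2 and Cd163; median -1.90), of which Cd5l and Cd163 remained without WT WD replicate 2 (median -1.97), and against N-LKO livers 0 passed in edgeR, with 6 lower at the unadjusted threshold (median -1.21). Markers that resident and recruited macrophages share, such as Cd68, Adgre1 and Csf1r, gave 0 calls among 12 in the livers of either diet (4 lower under HFD and 0 under WD at an unadjusted edgeR p under 0.05), and 1 (Cd14, log2 fold change 1.96, edgeR adjusted p 0.0172) in tumors against WT livers, which was lost without WT WD replicate 2. Their median log2 fold change was -0.25 under HFD, and under WD it was 0.05, 0.08 and 0.12 for N-LKO with WT liver, tumor with N-LKO liver and tumor with WT liver.

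Summed over the 10 members, the level under HFD was 28.8 to 68.3 CPM in WT livers and 74.9 to 134 CPM in N-LKO livers. Under WD it was 62.3 to 276 CPM in WT livers, 354 to 407 CPM in N-LKO livers and 488 to 809 CPM in tumors, without overlap. Spp1 made up much of these sums. Without it the other 9 members summed to 14.3 to 34.7 and 29.8 to 44.7 CPM under HFD, which overlap, and to 52.0 to 216, 252 to 279 and 320 to 409 CPM under WD, which do not. Of these 9, only Cd9, Cd63 and Itgax were higher in every tumor than in every N-LKO liver. Sums that also leave out Cd9 and Cd63, which are not restricted to macrophages, were not computed. The sums of the WT livers under WD without WT WD replicate 2 started at 236.5 CPM in place of 62.3 and at 175.1 CPM in place of 52.0. The shared macrophage markers summed under HFD to 120 to 160 CPM in WT livers and 87.3 to 157 CPM in N-LKO livers, and to 429 to 644, 487 to 604 and 460 to 748 CPM under WD, with all groups overlapping within a diet. Without WT WD replicate 2 the shared markers' sums in WT livers were 605.5 and 644 CPM, above those of all N-LKO livers. The Kupffer markers summed to 262 to 337 and 175.7 to 259 CPM under HFD, and to 662 to 888, 545 to 615 and 309 to 582 CPM under WD, where the lowest WT sum was 878 CPM without WT WD replicate 2.

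**Figure D4:**
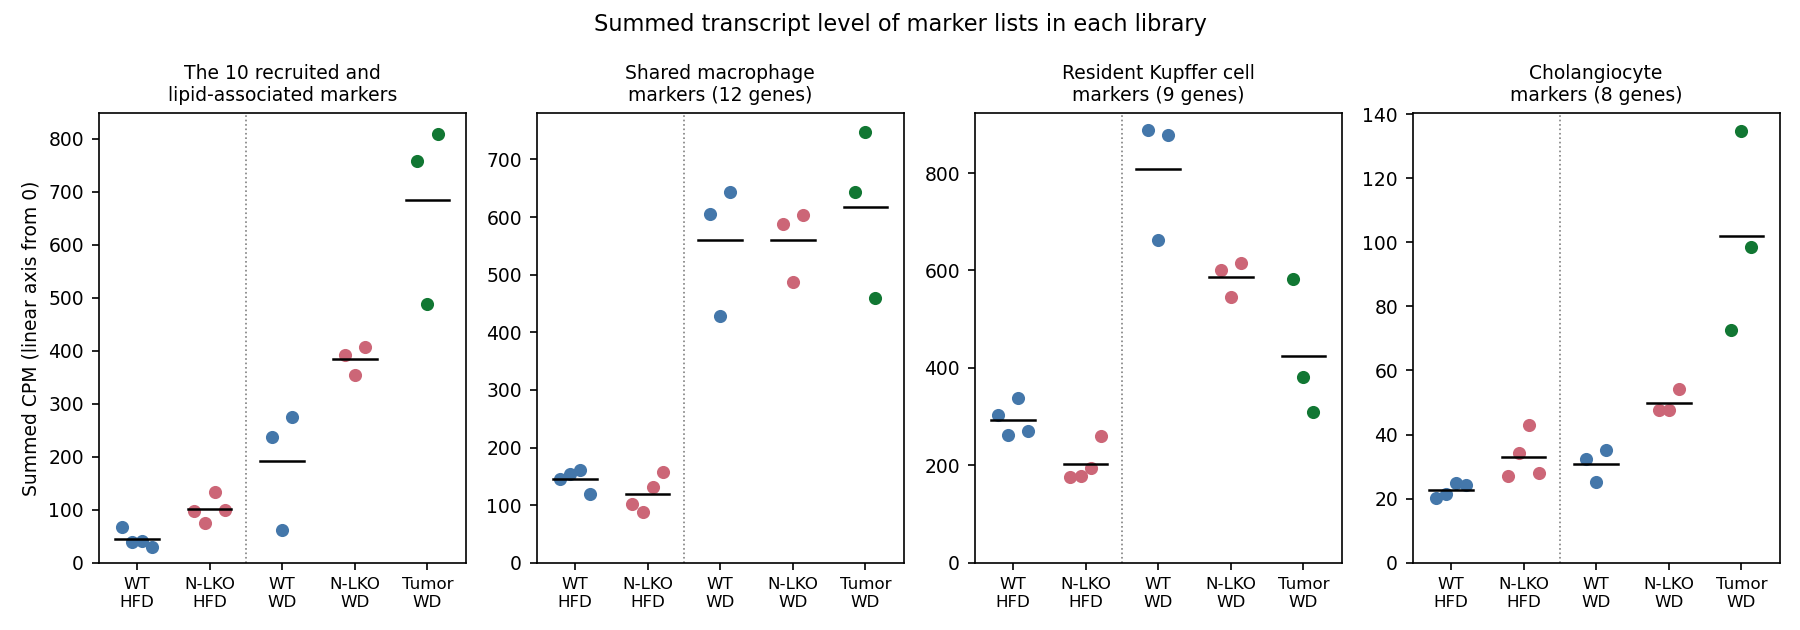
Summed CPM (linear vertical axis from 0) of the 10 members, of 12 shared macrophage markers, of 9 Kupffer cell markers and of 8 cholangiocyte markers, 1 point per library with the group mean as a bar, HFD left and WD right of the dotted line. The members' sums step up from WT liver to N-LKO liver to tumor under WD (62.3 to 276, 354 to 407 and 488 to 809 CPM), the shared markers overlap, and the Kupffer markers are lower in N-LKO livers (545 to 615 CPM) than in WT livers (662 to 888 CPM).

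Expressed as a percentage of the shared macrophage markers' sum, 5 members (Gpnmb, Spp1, Cd63, Cx3cr1 and Itgax) were higher in every N-LKO than in every WT liver under HFD, and 9 were under WD, all but Gpnmb. Over all tested genes, 6.29% and 12.7% were higher without overlap on that ratio. Spp1 went from 14.6 ± 5.98% (SD, n = 4) to 53.4 ± 13.7% (n = 4) of that sum under HFD and from 7.28 ± 4.25% (n = 3) to 21.8 ± 1.40% (n = 3) under WD. These shares carry no test. Without WT WD replicate 2 the 9 members were the same, and Spp1 stood at 9.72 ± 0.594% (n = 2) in WT livers. Relative to Cd68 alone the count under WD was 5. In tumors against N-LKO livers Cd9, Cd63 and Itgax were higher and Trem2 was lower without overlap, with Trem2 at 1.23 ± 0.308% and 1.86 ± 0.0594% (n = 3 each), beside 5.08% of all genes higher without overlap on that ratio. The share of all genes lower without overlap was not counted. Relative to Cd68 alone Trem2 and Itgax overlapped, and relative to C1qa, C1qb and C1qc alone Itgax overlapped.

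Other cell types were followed with lists of their own. Cholangiocyte markers, whose cells can also transcribe Spp1 and Cd9, summed under HFD to 20.2 to 24.9 CPM in WT livers and 27.0 to 42.9 CPM in N-LKO livers, and to 25.1 to 35.1, 47.8 to 54.1 and 72.7 to 135 CPM in WT livers, N-LKO livers and tumors under WD. The lowest WT sum under WD was 32.3 CPM without WT WD replicate 2. Between the WD livers all 8 cholangiocyte genes had log2 fold changes above 0. Their median was 0.97 (0.83 without WT WD replicate 2), beside 0.93 for the members. The list did not move as one from N-LKO livers to tumors: Sox9 (1.90) and Bicc1 (1.04) had log2 fold changes above 0, while Krt7 (-1.06), Cftr (-1.06), Epcam (-1.04), Muc1 (-0.67) and Krt19 (-0.65) had values below 0 that did not pass, and the list median was -0.66. The means of Sox9 and Bicc1 went from 10.5 ± 1.08 and 19.4 ± 1.80 to 39.3 ± 20.6 and 39.8 ± 10.7 CPM (SD, n = 3 each). In calls, Bicc1 was called under HFD (log2 fold change 1.53, edgeR adjusted p 0.0167, 1 of 3 tested), Sox9 in tumors against N-LKO livers (1.90, edgeR adjusted p 0.0355, 1 of 8) and both in tumors against WT livers (2 of 8, also without WT WD replicate 2), while the duct keratin Krt19 stayed at a mean of 0.310 to 0.755 CPM in every group. Tumor replicate 2, with the highest cholangiocyte sum, had the highest Cd9, Cd63, Cx3cr1 and Itgax but the lowest Spp1 and Gpnmb of the tumors. Stellate cell markers summed to 113 to 215 and 180 to 286 CPM under HFD, and to 266 to 684 (593 to 684 without WT WD replicate 2), 710 to 869 and 537 to 946 CPM under WD, with Lum called in tumors against WT livers, also without WT WD replicate 2, and 0 called in the livers, where 7 of 8 under HFD and 2 of 9 under WD were higher at an unadjusted edgeR p under 0.05. The stellate list medians were 1.03 under HFD and 0.69 between the WD livers (0.45 without WT WD replicate 2). Those of the members were 1.17 and 0.93. The part of cholangiocytes, stellate cells and tumor cells in the members' levels was not tested.

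Other leukocytes gave few calls, but edgeR called 0.0% of all genes between the WD livers. There the list medians were 0.88 for T and NK cell, 0.56 for monocyte, 0.55 for dendritic cell and 0.28 for neutrophil markers. The median of the members was 0.93. Without WT WD replicate 2 the list medians were 0.50, 0.42, 0.35 and 0.26. Monocyte markers had 0 edgeR calls in all 4 comparisons, among 5 genes tested under HFD and 9 under WD, with 2, 3, 0 and 2 at the unadjusted threshold in the order above. Of these, 1, 2, 0 and 2 were higher. Their sums were lower without overlap in N-LKO than in WT livers, at 977 to 1305 and 1428 to 1704 CPM under HFD. Under WD they were 1718 to 2084 CPM in N-LKO livers, 2255 to 3958 CPM in WT livers (2255 and 2265 CPM without WT WD replicate 2) and 2376 to 3019 CPM in tumors. Neutrophil markers had 0 at either threshold, among 3 genes tested under HFD and 4 under WD. Dendritic cell markers, whose cells also carry Itgax, had 0 calls in the livers, and Cd209a (log2 fold change 1.75, edgeR adjusted p 0.0477) and Siglech (1.27, edgeR adjusted p 0.0214) rose among 9 in tumors against WT livers. T and NK cell markers were not testable under HFD, and under WD Cd3g (1.78, edgeR adjusted p 0.0285) and Cd4 (2.06, edgeR adjusted p 0.0201) rose among 7 in tumors against WT livers. Their low sums under WD also stepped up without overlap. They were 3.976 to 6.075 CPM in WT livers, 7.038 to 8.012 CPM in N-LKO livers and 8.851 to 13.15 CPM in tumors. Of 8 hepatocyte markers 0 passed in the livers and 4 (Ttr, Pck1, Tat and Hnf4a) fell in tumors against WT livers. Of these 8 calls in tumors against WT livers (2 dendritic, 2 T cell and 4 hepatocyte), 0 remained without WT WD replicate 2.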

How the data were processed

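The authors depleted ribosomal RNA (Ribo-Zero), sequenced single-end reads on a HiSeq and deposited estimated counts per gene from Partek Flow, which divides shared reads between features. The study names TopHat2, the submitters' processing notes name STAR and mm9, and the listed coordinates match GRCm38 (GENCODE M21), from which positions were taken.

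Counts of the 17 libraries, grouped by sample title, were rounded. Tests ran in edgeR 4.0.16 under R 4.3.3 (TMM, filterByExpr, quasi-likelihood F test, two-sided, Benjamini-Hochberg adjusted p under 0.05 over all genes tested). HFD livers and the 3 WD groups were fitted separately. The study's own test ran on aligned reads, not used here. SE is the log2 fold change divided by the square root of F. Called means past the adjusted threshold. Correlations used log2 CPM (prior count 2). Titles name biological replicates, and each p-value sets a group difference against the variation between libraries within groups. Whether tumors and N-LKO livers came from separate mice is not known. Alternatives were other scalings and filters, DESeq2 1.42.0, limma 3.58.1 (voom), a replicate block, a length and GC offset, fits of 2 groups and leaving out each library. The fitting was tested on simulated data. The 10 members and all gene lists were chosen with earlier results of these data known. Named besides the members are called or leading genes of the lists and the 5 genes most correlated with Trem2 and Gpnmb, of which 1 is not reported here.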

Additional observations from a re-analysis of the deposited data

Results flagged for a closer look

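Of 20 groups of 4 HFD livers (10 members in 2 genotypes), 2 held a library far from the other 3, where chance flags about 1 in 20. Ccr2 in N-LKO HFD replicate 1 stood at 5.95 CPM, against 2.96 to 3.27 CPM in the other N-LKO livers. Cx3cr1 in N-LKO HFD replicate 3 stood at 4.89 CPM, against 2.73 to 2.87 CPM in the others. Without these libraries the log2 fold changes were -0.07 for Ccr2 and 0.95 for Cx3cr1, and neither gene passed in edgeR.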

How the results depend on the processing

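Of 952 alternative values of the members, 864 kept their direction and their side of the threshold, 25 lost and 7 gained a call, and 56 changed sign. Of the 2 members called under HFD, 1 (Spp1) remained with limma-voom, with the replicate block, with the length and GC offset and with both together, and 1 to 2 with a library left out. Against N-LKO livers, 2 members were called in tumors by DESeq2, 1 in the fit of only the 2 groups and 0 to 1 with a library left out. Against WT livers, the 5 called members became 2 (Cd9 and Cd63) in the fit of only the 2 groups and 3 to 5 with a library left out. Relative to Cd68 alone, 5 in place of 9 members were higher without overlap in N-LKO than in WT livers under WD. The ratios without WT WD replicate 2, chosen after the data were seen, left the counts at 9 and, in tumors against WT livers, 6. Those 6 were Spp1, Cd9, Cd63, Lgals3, Cx3cr1 and Itgax. With all libraries, 11.4% of all genes were higher without overlap on that ratio in tumors against WT livers.

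Signs changed for members that had passed no test in that comparison. In tumors against N-LKO livers Gpnmb became -0.08 with limma-voom, -0.20 with the replicate block and -0.18 with the block and the offset, and Ccr2 -0.06 with limma-voom. In the difference between diets Spp1 became 0.26 with limma-voom, 0.19 with the block and 0.24 with the block and the offset, Cd63 0.08 with limma-voom and 0.20 with the block and the offset, Cx3cr1 -0.01 with the offset, and Mmp12 0.42 with limma-voom, 0.32 with the block and 0.06 with the block and the offset. With a library left out, Ccr2 under HFD ran from -0.15 to 0.81 and Trem2 in tumors against WT livers from -0.22 to 0.54. Against N-LKO livers Gpnmb ran from -0.33 to 0.70, Lgals3 from -0.02 to 0.24, Ccr2 from -0.18 to 0.49, Cx3cr1 from 0.00 (without tumor replicate 2) to 0.95, with 0.66 over all libraries, and Mmp12 from -0.17 to 0.18. In the difference between diets Trem2 ran from -0.14 to 0.66, Spp1 from -0.54 to 0.25, Cd63 from -0.66 to 0.35, Lgals3 from -0.25 to 0.37, Cx3cr1 from -0.26 to 0.42, Itgax from -0.71 to 0.16 and Mmp12 from -0.60 to 0.34. The cause was not tested.

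Over all genes, the 655 calls under HFD became 999 with DESeq2, 221 with the offset, 137 with the block and the offset and 179 to 597 with a library left out. The 0 calls between the WD livers became 99 with DESeq2 and 6 in the fit of 2 groups. The 89 calls between tumors and N-LKO livers became 1021 with DESeq2, 58 with the filter at a mean of 1 CPM, 18 with limma-voom, 36 with the block, 40 with the block and the offset, 29 in the fit of 2 groups and 3 to 2193 with a library left out. The 2653 calls between tumors and WT livers became 705 in the fit of 2 groups and 570 to 3819 with a library left out. The 256 calls of the difference between diets became 923 with DESeq2, 44 with the offset, 0 with the block and 22 to 330 with a library left out.

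Same-numbered libraries did not deviate together: 1 of 4 correlations under HFD and 1 of 9 under WD exceeded 0.1. The numbers are those of the sample titles. The check and the replicate block therefore cannot tell whether a tumor and a liver came from the same animal. With the replicate block Cd63 lost its call under HFD (log2 fold change 1.22, edgeR adjusted p 0.0775) and Cx3cr1 lost its call in tumors against WT livers (1.89, edgeR adjusted p 0.0631). Depth limits Trem2 under HFD, at 4 to 14 counts per library.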
